A study of Schizosaccharomyces pombe with 127 samples.

Results

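Fission yeast genes that are still known only by a systematic name, and whose messenger RNA fell at least 2-fold when nitrogen was removed, numbered 29. They were taken from 759 genes with a systematic name alone among 4929 features on the arrays. A gene was included when its change, the log2 level at 60 min minus that at 0 min, averaged -1 or lower over the deletion strains with both times. The genes were thus chosen by their fall on starvation, and the values of that fall are a description, with no test. All 29 are protein-coding genes in the current gene table, 15 on chromosome I, 7 on chromosome II and 7 on chromosome III. That table still gives no other symbol for any of them, so no function is attached to them here. The genes just inside the limit were SPBPB10D8.01 and SPAC9.07C, both at -1.01. Those just outside it were SPBC2G5.01 at -0.998 and SPCC825.01 at -0.992.

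The series compared Schizosaccharomyces pombe strains that each lack 1 gene, mostly a protein kinase gene, after 60 min in minimal medium without nitrogen and at 0 min, when the log-phase culture still had nitrogen, all at 30 degrees. Cy5-labelled complementary DNA of each culture was set on a 2-colour array against Cy3-labelled complementary DNA of a pool of wild-type cells, whose culture condition is not given in the sources used here. The arrays comprised 62 deletion strains and 1 wild type at 60 min, and 63 deletion strains and 1 wild type at 0 min, with 1 array per strain and time. Deletions other than of kinases were atf1, cyr1, cgs1 and rst2. Each deletion is a single strain, so a strain's own background cannot be told apart from its deletion. A level below is a log2 ratio to the pool once the median of the array is set to 0, so it is relative to the other transcripts of the array, and SDs are over strains unless stated.

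Cells that lose their nitrogen source stop growing, and a starved fission yeast culture turns from growth to mating or to quiescence. The TOR kinases, central regulators of growth that respond to nitrogen, promote ribosome production while nitrogen is present, and transcription of ribosomal genes is shut down when it is lost. Ribosome production uses separate gene groups, among them the proteins of the ribosome itself and the nucleolar factors that process ribosomal RNA and assemble the subunits. In a systematic name, SPAC and SPAP stand for chromosome I, SPBC and SPBP for chromosome II and SPCC for chromosome III.

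The labels of most strains were borne out by the deleted gene, whose level was lower than in any other deletion strain for 47 of 61 deletions after starvation (60 min) and for 51 of 61 before it. Of the 14 strains in which it was not the lowest at 60 min, those labelled atf1, byr1, ppk22, cdk11, ppk33 and srb10 had it lowest at 0 min. The other 8, labelled chk1, hri1, mde3, mug27, ppk38, spo4, srk1 and wis1, had it lowest at neither time, so their probes do not bear out the deletion. Whether these probes lie within the deleted stretch was not tested, and values of these strains below are those of the label. In ppk22 it differed from the other strains by -0.53 at 60 min and by -3.72 at 0 min. In chk1 it differed by -0.03 at 60 min and by 0.10 at 0 min, in mug27 by 0.01 and -0.16, and in wis1 by -0.27 and 0.06. Of 1953 pairs of 0 min arrays 9 had a correlation across probes under -0.3 (lowest -0.42), and the direction given by the dyes was kept. The wild-type array at 60 min carries wild type in its title and a kinase deletion in another field, and the numbers of both wild-type arrays lie far apart in the array series. The median change over all features was 0.04.

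SPAC8E11.10 and SPBC1652.02 had the deepest falls. SPAC8E11.10 ranged from -4.05 to -1.54 over the strains at 60 min (median -2.77), against -1.20 to 1.00 at 0 min (median 0.21), so that every 60 min array lay below every 0 min array. Its mean change was -2.97 (SD 0.68, n = 62), with the strain labelled hri1 lowest at -4.36 and hhp2 highest at -1.52. SPBC1652.02 ranged from -4.71 to -1.11 at 60 min (median -3.44) and from -1.61 to 0.59 at 0 min (median -0.34). Its mean change was -2.96, with the widest spread of the 29 genes (SD 0.89), from -4.46 in ppk32 to -0.58 in the strain labelled mug27.

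SPBPB10D8.04C lay between -2.77 and -0.51 at 60 min (median -2.19), against -0.06 to 1.34 at 0 min (median 0.62), with no overlap. Its mean change was -2.78 (SD 0.46), and the shallowest strain, atg1, which lacks the kinase that starts autophagy, stood at -1.001. SPAP8A3.07C lay between -3.29 and -0.82 at 60 min (median -2.44) and between -0.50 and 0.63 at 0 min (median 0.02), again without overlap, and its mean change was -2.47 (SD 0.41). Both genes were highest at 60 min in vps15, which lacks a regulatory kinase of the phosphatidylinositol 3-kinase complex.

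The genes that complete the 10 deepest falls changed by less. SPAC29A4.02C averaged -2.03 (SD 0.43), from -2.97 in atg1 to -0.75 in ppk25, and SPAC977.12 averaged -1.75 (SD 0.39), from -2.46 in ppk18 to -0.89 in the strain labelled chk1, the DNA damage checkpoint kinase. SPAC27E2.03C averaged -1.70 with a narrow spread (SD 0.28), and its highest value, -0.75, came from cyr1. SPAC24H6.10C averaged -1.50 (SD 0.30), SPCC576.17C -1.47 (SD 0.32) and SPBC8D2.18C -1.45 (SD 0.42). The remaining 19 genes averaged between -1.39 and -1.01.

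Over all 29 genes the median of the mean changes was -1.30, the median of their mean levels -1.19 at 60 min and 0.08 at 0 min. By the limma fit with Benjamini-Hochberg adjustment that gives the background, 432 features (8.76%) had an adjusted p under 0.05 and were at least 2-fold lower, and 371 (7.53%) at least 2-fold higher. All 29 genes are among the lower ones by the way they were chosen. In 8 of the 29 genes every 60 min array lay below every 0 min array, as in 4.48% of all features. The change was below 0 in every strain for 25 of the 29 genes, as for 11.8% of all features. The choice of the genes by these same changes sets all of these counts high, and nothing is read from them. The exceptions were SPAC11D3.02C with 60 of 62 strains below 0, SPCC794.03 and SPCC1827.05C with 61, and SPBPB10D8.01 with 59. The strains above 0 include atg1 for SPAC11D3.02C (0.48) and SPBPB10D8.01 (1.51), vps15 for SPCC794.03 (0.05) and ppk1 for SPCC1827.05C (0.11).

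**Figure D1:**
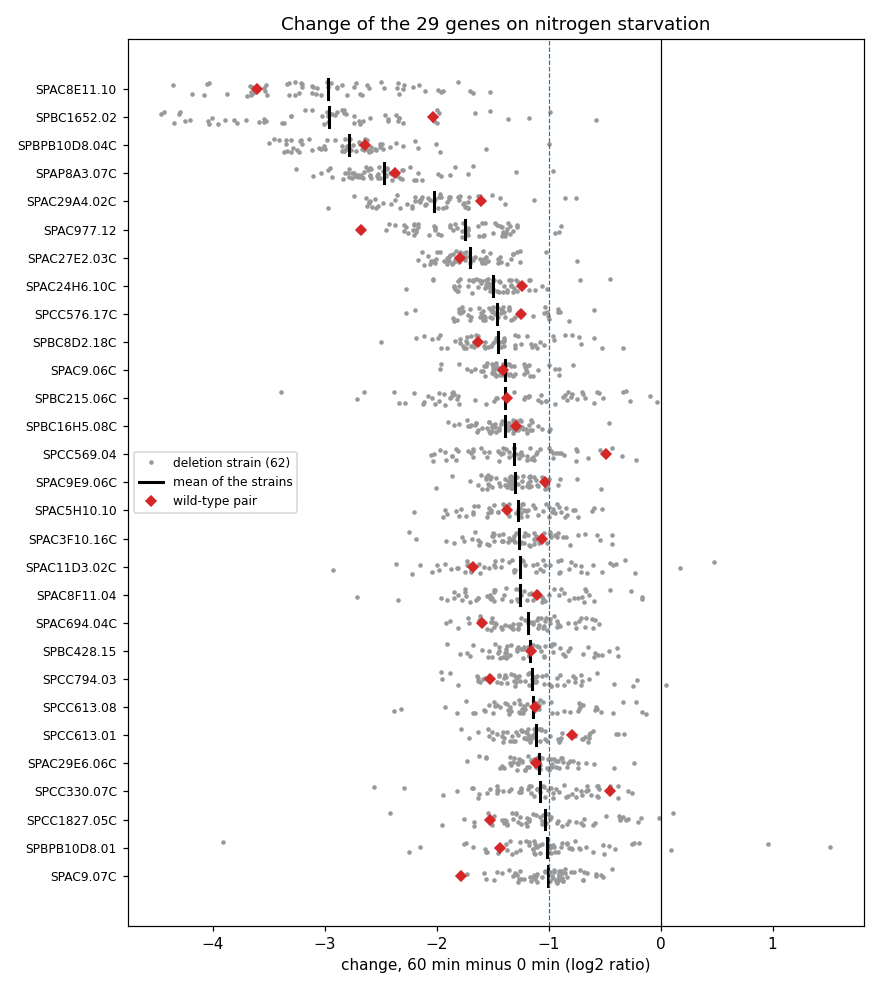
Change of each of the 29 genes, 60 min minus 0 min, as a log2 ratio (horizontal axis), with 1 row per gene in the order of the mean. Grey points are the 62 deletion strains, the black bar is their mean, the red diamond is the wild-type pair, and the dashed line marks the limit of -1. Means run from -2.97 to -1.01, and SPBC1652.02, SPBC215.06C and SPBPB10D8.01 have the widest rows.

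The steadiness of the fall differed between the genes. SPAC9.06C (SD 0.23), SPBC16H5.08C (SD 0.24) and SPAC9E9.06C (SD 0.25) varied least over the strains, with means of -1.39, -1.39 and -1.30. For SPAC9.06C this holds for the average of 2 unequal probes, whose own SDs were 0.36 for the probe that fell and 0.31 for the other. SPBC1652.02 (SD 0.89), SPBC215.06C (SD 0.71) and SPBPB10D8.01 (SD 0.70) varied most. SPBC215.06C reached -3.39 in ppk25 and stayed at -0.03 in rst2. The median SD over strains was 0.41 for the 29 genes, close to the 0.39 of all features that fell as far, while it was 0.29 over all features.

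The wild-type pair was not used in the choice and gives the same measure in a strain with no deletion, with 1 array per time and no test. Of the 29 genes 29 were below 0 in this pair, where 46% of all features were, and 26 were at -1 or lower, where 9.98% were. The median wild-type change of the 29 genes was -1.41, against 0.06 over all features. The genes above -1 were SPCC330.07C at -0.45, SPCC569.04 at -0.49 and SPCC613.01 at -0.79. SPAC977.12 changed by -2.68 and SPAC9.07C by -1.78 in wild type, each lower than in every deletion strain. As the 60 min wild-type label carries a doubt and the pair spans the array series, these values hold time, array series and label together, and their parts cannot be told apart.

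Each gene is read by a pair of probes, and for most genes the probes gave 1 answer. The median gap between the mean changes of both probes was 0.10, and in 22 of the 29 genes both probes stood at -1 or lower. In SPCC576.17C the probes averaged -2.86 and -0.07, in SPAC9.06C -2.78 and -0.01, and in SPCC569.04 -2.61 and -0.00. For these 3 genes the value of 1 probe carries the whole fall, and the gene mean used here lies between a deep change and none. SPBC428.15 also had unequal probes, at -0.63 and -1.70. A gap over 1 was found in 4 of the 29 genes, against 3.76% of all genes with 2 probes and 4.85% of those at -1 or lower. Over the strains, the probes of SPBPB10D8.01 (r = 0.86), SPBC215.06C (0.85) and SPAC29A4.02C (0.92) moved together, while those of SPAC9.06C did not (-0.11). The probe r was also below 0.5 for SPCC576.17C (0.18), SPCC569.04 (0.31), SPAC9.07C (0.31), SPAC977.12 (0.37) and SPCC613.01 (0.43).

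**Figure D2:**
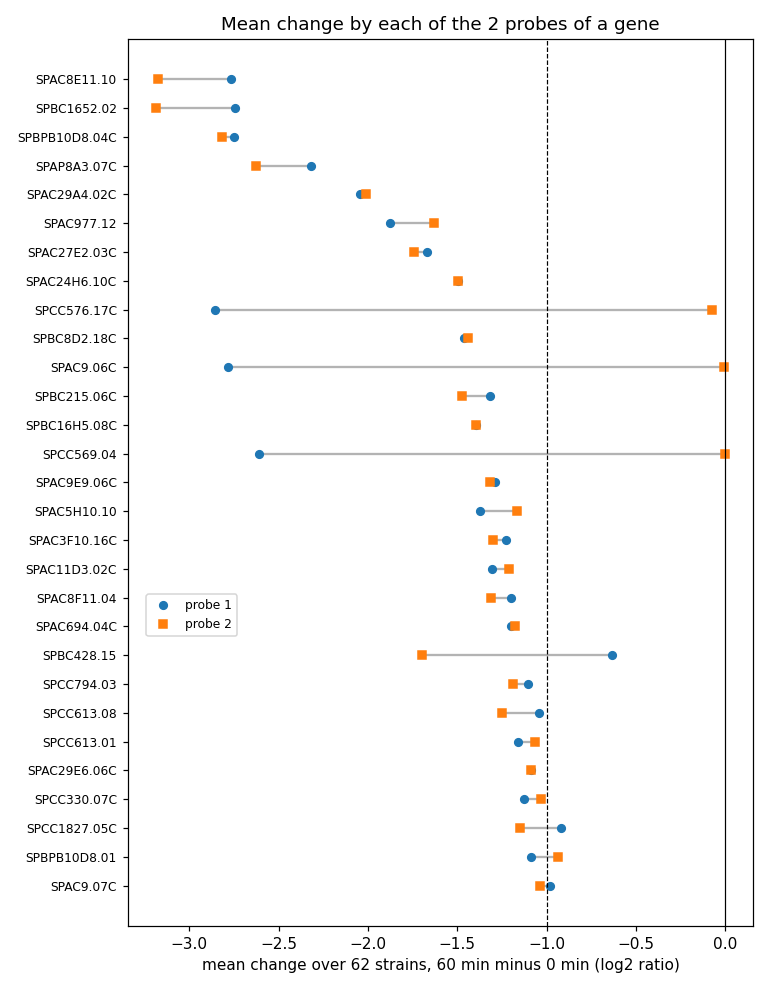
Mean change over 62 strains, 60 min minus 0 min as a log2 ratio, for each probe of the 29 genes. Circles and squares are the 2 probes of a gene joined by a line, and the dashed line marks -1. The long lines belong to SPCC576.17C, SPAC9.06C, SPCC569.04 and SPBC428.15.

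To place the fall among genes of known function, 4 lists of growth genes were read in the same fit. Of 124 ribosomal protein genes 121 were called lower and 0 higher at an adjusted p under 0.05 and at least 2-fold, with a median change of -2.76, led by rpl35A01 (-3.88), rpp101 (-3.78) and rps2201 (-3.77). At any size 1 gene of this list was higher at an adjusted p under 0.05, rpl3703 (0.86). Of 138 ribosome biogenesis genes, which process ribosomal RNA and assemble the subunits, 58 were called lower and 0 higher (median -0.84), led by gar1 (-2.59), gar2 (-2.36) and rlp7 (-2.17), and 4 were higher at any size, with nep1 the highest at 0.56. Of 39 genes for RNA polymerases I and III and their factors 15 were called lower and 0 higher (median -0.54), led by nuc1 (-2.03), the large subunit of polymerase I. In this list 6 were higher at any size, with maf1, the repressor of polymerase III, the highest at 0.88. Of 37 translation factor genes 28 were called lower and 0 higher (median -1.25), led by tif1 (-2.54), tif512 (-2.46) and tif11 (-2.28), and 2 were higher at any size, with pab1 for the poly(A)-binding protein at 0.66. The median of the 29 unnamed genes was -1.30. Their choice at -1 or lower bounds this value, so its place among the list medians is not read.

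The unnamed genes differed in which named genes they followed across the 62 strains. The likeness of each gene to the mean change of a list was measured as Pearson's r over the strains. The points of such a correlation share arrays and centring, so it is a description. The means of the ribosome biogenesis and ribosomal protein lists were themselves nearly unrelated over the strains (r = 0.09). Of the 29 genes, 10 had an r of 0.5 or more with the ribosome biogenesis mean, against 9.32% of features outside the list and 17.7% of such features at -1 or lower. Another 5 had an r of 0.5 or more with the ribosomal protein mean, against 1.86% of features outside that list and 18.4% of such features at -1 or lower. The other 14 reached 0.5 with neither of these lists. As shares of the 29 genes these are 34.5% and 17.2%, the second close to the share of all fallen features. The fallen features outside 1 list include genes of the other list. Shares without those genes were not computed. With the mean of the RNA polymerase I and III list 10 of the 29 genes reached 0.5, against 9.71% of features outside that list and 24% of such features at -1 or lower. Of these, 9 were also among the 10 near ribosome biogenesis, and the remaining 1 was SPAC977.12 (0.52). With the translation factor mean 5 did, against 5.8% and 42.1%. These were SPAC27E2.03C (0.65), SPAC8E11.10 (0.60), SPBC8D2.18C (0.60), SPAC694.04C (0.59) and SPBC16H5.08C (0.50), so SPAC27E2.03C was nearer to translation factors than to ribosomal proteins.

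The genes nearest to ribosome biogenesis were SPCC613.08 (r = 0.89, Spearman's rho = 0.85), SPAC3F10.16C (0.86, 0.85), SPBC215.06C (0.85, 0.85), SPAC8F11.04 (0.84, 0.81) and SPCC1827.05C (0.82, 0.80). Without the 2 strains farthest from the median of the list mean these r were 0.86, 0.82, 0.82, 0.80 and 0.77. SPBC428.15 (0.71), SPBC1652.02 (0.68), SPAC11D3.02C (0.66), SPCC330.07C (0.61) and SPCC613.01 (0.55) followed. The first 5 also followed the list at 0 min, before any starvation, with r of 0.87 for SPCC613.08, 0.71 for SPAC3F10.16C, 0.82 for SPBC215.06C, 0.75 for SPAC8F11.04 and 0.85 for SPCC1827.05C. SPBC1652.02 and SPCC330.07C did so at 60 min (0.84 and 0.71) and not at 0 min (-0.09 and -0.31).

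With the ribosomal protein mean, r was 0.67 for SPBC8D2.18C, 0.63 for SPCC576.17C, 0.61 for SPAC27E2.03C, 0.56 for SPAC9.06C and 0.56 for SPAC29A4.02C. Without the 2 farthest strains these r were 0.60, 0.59, 0.495, 0.52 and 0.48, so that 3 of the 5 stayed at 0.5 or more, and the set of 5 is uncertain by SPAC27E2.03C and SPAC29A4.02C. For SPCC576.17C and SPAC9.06C the value averages the unequal probes described above. Within the set of 10 the median r between genes was 0.57, within the set of 5 it was 0.42, and within the 14 others 0.20. Between the 10 and the 5 it was -0.09. Higher r within a set follow in part from how the sets were formed over these strains, and nothing is read from them. These 14 others include 5 of the 10 deepest falls: SPAC8E11.10, SPBPB10D8.04C, SPAP8A3.07C, SPAC977.12 and SPAC24H6.10C. SPBPB10D8.04C and SPAP8A3.07C were each other's nearest gene among the 29 (r = 0.66).

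**Figure D3:**
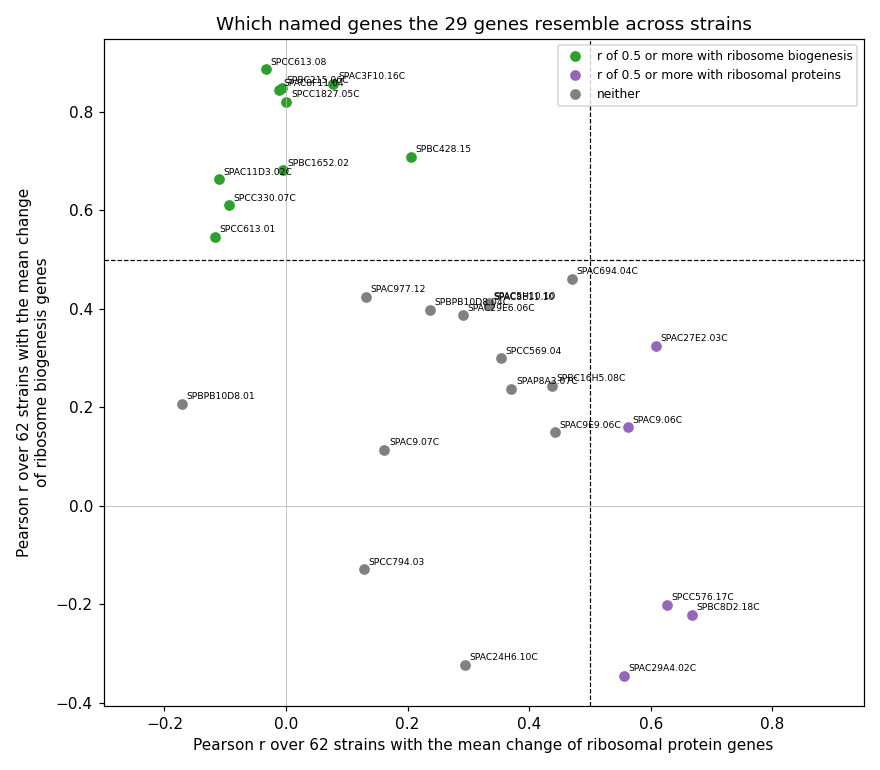
Likeness of the 29 genes to 2 gene lists, as Pearson's r over 62 strains with the mean change of 124 ribosomal protein genes (horizontal axis) and of 138 ribosome biogenesis genes (vertical axis). Each point is a gene and the dashed lines mark r of 0.5. The 10 green points lie above the horizontal line, with r of -0.12 to 0.21 on the other axis, the 5 purple points lie right of the vertical line, and no gene passes both.

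The sets of 10 and 5 genes had their lowest and highest averages in different strains. In ppk25 the 10 genes near ribosome biogenesis changed by -2.55 on average, the lowest of all strains, against -1.35 in the others (SD 0.38), and the 5 genes near ribosomal proteins changed by -1.11. Its change was the deepest of the 62 strains in 7 of the 29 genes, as in 15.9% of all features, and the highest in 2, as in 13.8% of all features. The 7 belong to the set of 10, which the choice of that set favours, as ppk25 is also the lowest strain in the ribosome biogenesis mean. Examples are SPBC215.06C (-3.39), SPAC11D3.02C (-2.93) and SPAC8F11.04 (-2.71), and the ribosome biogenesis list itself changed by -1.62 in this strain. In the strain labelled chk1 the set of 10 had its highest average, -0.39, with SPCC1827.05C at -0.01 and SPCC613.08 at -0.13, while the set of 5 changed by -1.82. In atg1 the set of 5 changed by -2.27, the lowest of all strains. In cyr1 the set of 5 changed by -0.83, the highest. The choice of the sets also favours these highest strains. The strain labelled chk1 is the highest in the ribosome biogenesis mean (-0.35), and cyr1 in the ribosomal protein mean (-1.68). Each of these values comes from 1 array per time and has no replicate, and the set of 5 holds the 2 genes that fall below r of 0.5 without the 2 farthest strains.

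**Figure D4:**
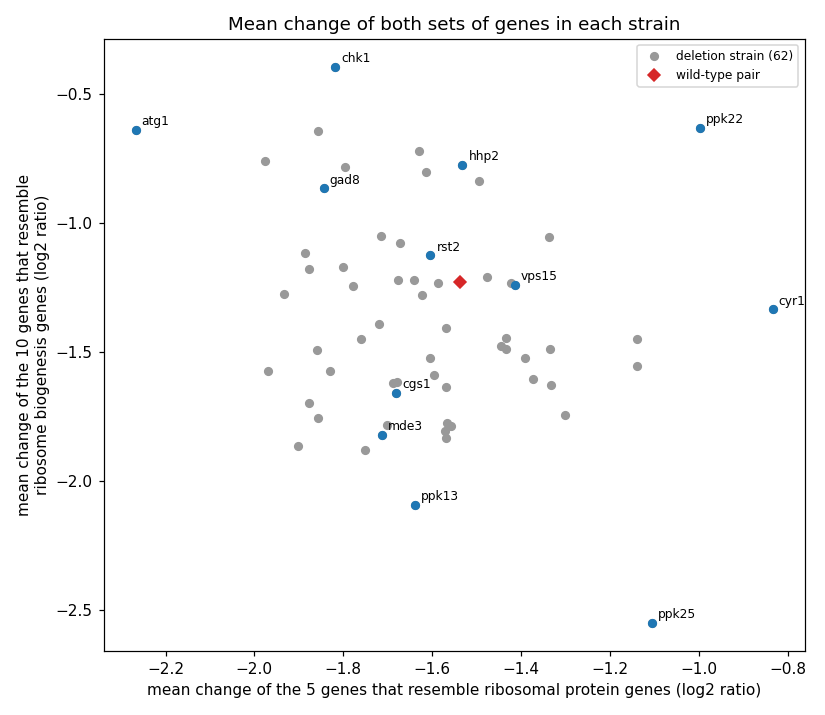
Mean change of the 5 genes that resemble ribosomal protein genes (horizontal axis) and of the 10 genes that resemble ribosome biogenesis genes (vertical axis), as log2 ratios, 60 min minus 0 min. Each circle is 1 of 62 deletion strains, blue where named, and the red diamond is the wild-type pair. The strains spread in both directions, with ppk25 lowest at -2.55 on the vertical axis and atg1 lowest at -2.27 on the horizontal axis.

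Averaged over all 29 genes, the change had a mean of -1.51 over the strains (SD 0.21, n = 62), and the wild-type pair stood at -1.52. Between 13 and 29 of the genes were at -1 or lower in a strain, with a median of 24. The 5 strains with the lowest averages were ppk13 at -1.94, ppk3 and ppk25 at -1.86, and ppk11 and the strain labelled mde3 at -1.82. The 5 highest were the strain labelled ppk22 at -0.999, that labelled chk1 and hhp2, a casein kinase 1, at -1.01, atg1 at -1.16 and cmk2, a calmodulin-dependent kinase, at -1.19. The size of the response of the 29 genes followed that of the 774 other features called at least 2-fold changed. The slopes of each strain on the mean of the other strains, over the 29 genes and over the 774, correlated at r = 0.82 over the 62 strains (Spearman's rho = 0.83, r = 0.80 without the 2 farthest). Both slopes come from the same arrays.

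With nitrogen present, 1 strain stood apart. In cyr1, which lacks adenylate cyclase, the enzyme that makes the cyclic AMP that activates protein kinase A, the 29 genes averaged -0.43 at 0 min. The other 62 strains averaged 0.11 (SD 0.08), and the lowest of those, mak2, stood at -0.03. Its level was the lowest of the 63 strains in 12 of the 29 genes, as in 11.8% of all features, and below the mean of the other strains in 23, as in 46.4% of all features. SPAC9E9.06C stood at -1.85 in cyr1, against 0.25 in the others (SD 0.24). SPAC8E11.10 stood at -1.20 against 0.20 (SD 0.28). SPCC794.03 stood at -0.99 against 0.55 (SD 0.30), and SPAC24H6.10C at -0.92 against 0.41 (SD 0.23).

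The 12 genes were spread over the sets. Of the 10 genes near ribosome biogenesis 1 was lowest in cyr1, of the 5 near ribosomal proteins 4 were, and of the 14 others 7. The choice of the set of 5 favours its count, as cyr1 is also the highest strain in the ribosomal protein mean change (-1.68). In the 0 min array of cyr1 the median difference from the other strains was -0.87 over the ribosomal protein list and -0.20 over the ribosome biogenesis list. Over the 29 genes it was -0.04 at 60 min, with 15 of them below the other strains, and -0.62 at 0 min. SPAC9E9.06C (-2.38 against -1.06), SPAC24H6.10C (-2.19 against -1.09) and SPCC794.03 (-1.82 against -0.60) were the lowest of the 62 strains at 60 min as well as at 0 min. The change of cyr1 was the highest of all strains in SPAC27E2.03C (-0.75), SPAC9.06C (-0.78), SPBC16H5.08C (-0.46) and SPAC9E9.06C (-0.53), and its 0 min level was the lowest in all 4. At 60 min SPAC27E2.03C stood at -1.63 in cyr1 against -1.81 in the others (SD 0.23), SPAC9.06C at -1.17 against -1.13 (SD 0.18) and SPBC16H5.08C at -1.23 against -1.56 (SD 0.21).

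The array of cyr1 at 0 min was also wider than most, with an SD over features of 0.51 against a mean of 0.33 in the other arrays, and its part in the count was not tested. Divided by the SD of each array, or after quantile normalization, cyr1 was lowest in 7 of the 29 genes, as in 5.78% and 6.72% of all features. In these settings it lay below the mean of the other strains in 24 and 23 of the 29 genes. The matching shares of all features were not computed. After quantile normalization the median difference over the 29 genes was -0.80, against -0.62 with median centring. It is 1 of 6 deletion strains with array numbers above 1500, and among those 6 cyr1 was lowest in 18 of the 29 genes, as in 25.1% of all features. The other 5 had averages of -0.02 in ppk32, 0.02 in ppk18, 0.02 in ppk27, 0.19 in cgs1 and 0.35 in rst2. None of these 5 lay below the lowest of the remaining strains, mak2. The deletion of cgs1, the regulatory subunit that holds protein kinase A inactive, gave a median difference of 0.14 over the 29 genes. The deletion of rst2, a zinc-finger transcription factor restrained by protein kinase A, gave the highest average of all strains, with the highest level in 7 of the 29 genes, as in 13.6% of all features. Its array was the widest named here (SD over features 0.74). SPAC29E6.06C stood at 1.21 in rst2, against -0.13 in the others (SD 0.18), and SPBC16H5.08C at 0.82 against -0.18 (SD 0.20).

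**Figure D5:**
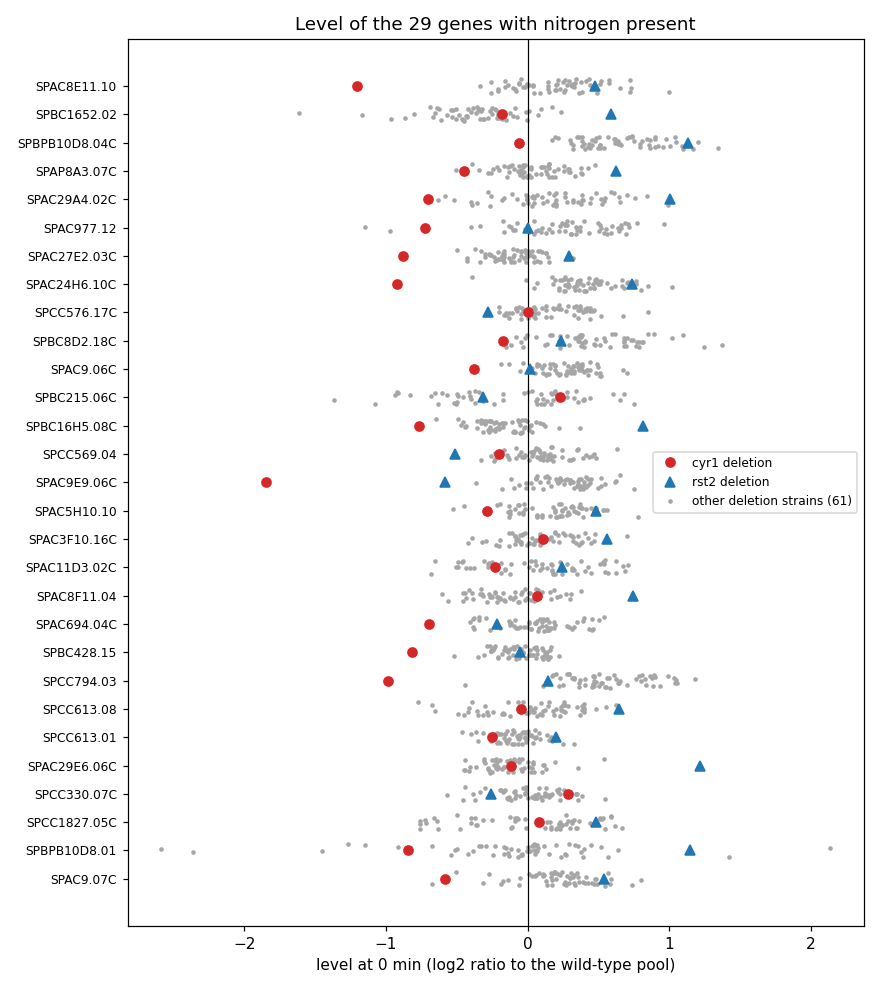
Level of the 29 genes at 0 min, as a log2 ratio to the wild-type pool, with 1 row per gene. Red circles are the cyr1 deletion, blue triangles the rst2 deletion, and grey points the other 61 deletion strains. The cyr1 points lie left of all others in 12 rows, farthest in SPAC9E9.06C at -1.85, and the rst2 points lie right of all others in 7 rows.

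To ask whether a signalling pathway sets these genes apart, 4 groups of strains lacking related kinases or their targets were set against all other deletion strains, for the 0 min level and for the change, by limma with Benjamini-Hochberg adjustment over all 4929 features. The strains of a group stand in as replicates. In 8 of 8 comparisons 0 of the 29 genes had an adjusted p under 0.05. For gad8, sck2 and psk1, kinases of the AGC family that act downstream of TOR, 0.0203% of all features were called for the 0 min level and 0% for the change. None of the 29 genes had an unadjusted p under 0.05 in either, against 52 and 118 of the 4929 features. The differences lay between -0.38 and 0.65 for the change, with a median SE of 0.23, and between -0.20 and 0.38 for the level, with a median SE of 0.17. On average over the 29 genes the change was -1.61 in sck2, -1.49 in psk1 and -1.41 in gad8.

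The next group held ssp2, which encodes the AMP-activated kinase itself, ssp1, the kinase that activates it, and its relative ppk9. In this group 0.0203% of all features were called for the level and 0% for the change. An unadjusted p under 0.05 was found for 0 of the 29 genes, against 67 and 134 of the 4929 features. Averaged over the 29 genes, the change was -1.67 in ssp2, -1.46 in ssp1 and -1.56 in ppk9. For the casein kinases 1 hhp1, hhp2, cki2 and cki3, 0% of all features were called in either comparison. For the level and the change, 168 and 263 of the 4929 features had an unadjusted p under 0.05. Of the 29 genes 4 and 2 did. The largest of these was SPBC8D2.18C, which changed by -0.98 in the 4 strains against -1.48 in the others, a difference of 0.50 (SE 0.21, limma adjusted p = 0.813). On average over the 29 genes the change was -1.68 in hhp1, -1.01 in hhp2, -1.45 in cki2 and -1.46 in cki3. Such comparisons resolve large differences at most, and that of SPBPB10D8.01 given below (-1.23, SE 0.37) was not called. On simulated data with 3 strains against the others, 94% of genes differing by 1 and 34% of those differing by 0.5 were called. With 4 strains these shares were 94% and 66%. In the simulated data many genes were changed at once, at several sizes and with independent noise. The adjustment is then less strict than in the real comparisons, which called few or no features. The shares for the real comparisons can thus be lower and were not tested, so a lack of calls does not exclude differences of these sizes. The share for genes as variable as the 29 was not tested. Their median SD over strains was 0.41, against 0.29 over all features.

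The stress-activated MAP kinase pathway was represented by wis4 and wis1, kinases of its cascade, and atf1, its transcription factor. The deletion of wis1 is not borne out by its probes. That of atf1 is borne out at 0 min only, as its gene differed from the other strains by -0.22 at 60 min. For these 3 strains 0.101% of all features were called for the level and 0.101% for the change. Without atf1, 0 features were called for the change. In the fits of all 3 strains, 305 and 535 of the 4929 features had an unadjusted p under 0.05, for the level and the change. The 29 genes were near this background with 2 and 3, led by SPBPB10D8.01. This gene stood at -1.26 on average in the 3 strains at 0 min, against -0.03 in the others (SD 0.63). The difference was -1.23 (SE 0.37, limma adjusted p = 0.374). It came from atf1 at -2.36 and wis4 at -1.45, while the strain labelled wis1 stood at 0.03. Without wis1 the gene had an adjusted p under 0.05 for the level, as 1 of the 29 genes, and 21 of all features (0.426%) were called. Its change differed by 0.96 (SE 0.39, limma adjusted p = 0.336), from -1.06 in the strain labelled wis1 to 0.96 in the strain labelled atf1. The other strains of this fit include that labelled byr1, in which the gene changed by -3.91. The 60 min array labelled byr1 had the atf1 gene at -3.79, as described below, so this difference rests on doubted labels on both sides.

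SPBPB10D8.01 had the most uneven level of the 29 genes at 0 min, from -2.59 to 2.13 (SD 0.70). Its lowest 0 min arrays were atg1 at -2.59, atf1 at -2.36, wis4 at -1.45 and vps15 at -1.27, and its highest was srb10, a kinase of the Mediator complex. SPBPB10D8.02C, the gene next to it, whose mean change was 0.16 (SD 0.69), had the same 4 strains as its lowest at 0 min, at -2.21, -1.65, -0.87 and -0.82. Over the strains both changes correlated at r = 0.77. At 60 min the lowest value of SPBPB10D8.01, -3.71, came from the array labelled byr1, which also held the lowest SPBPB10D8.02C value, -2.71. In that array the atf1 gene stood at -3.79, against 1.67 in the other 60 min arrays (SD 0.33), and in the 0 min array labelled atf1 it stood at -4.17 against 0.04 (SD 0.50). Both arrays with the lowest atf1 levels at their time were thus among the 2 lowest for this pair of neighbours. The atf1 level was 1.12 in atg1 and 1.21 in vps15 at 0 min. The lowest change of SPBPB10D8.01, -3.91 in byr1, and that of 0.96 in atf1 rest on these doubted 60 min labels. Further along the locus, the changes of SPBPB10D8.03 and SPBPB10D8.04C correlated with those of SPBPB10D8.01 at 0.09 and 0.38.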

How the data were processed

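The authors deposited linear ratios of strain (Cy5) to wild-type pool (Cy3), dyes per the labels. How they corrected the background and scaled the arrays is not stated in these sources. The 127 arrays had medians of 0.932 to 1.09 over 9858 probes, and 6 values of 0 were set to missing. Signal over background is not used here, so the number of arrays limits the precision. Ratios were taken to log2, centred on the array median and averaged over the probes of a gene. Probe names came from the platform annotation, updated by the RefSeq gene table of ASM294v3 (9632 with 1 symbol, 44 with several, 182 with none).

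Both arrays of a strain were paired by the strain name in their titles, which is a shared genotype. R 4.3.3 with limma 3.58.1 fitted the paired change and the pathway contrasts over all features with a value in at least 80% of pairs, and Python 3.11.15 with pandas 2.3.3 made the descriptions. The p-values measure the spread between strains, as a strain has 1 array per time. The fits were tested on simulated data. The genes, lists and strain groups were chosen with earlier results of these data known. Genes named are the 10 deepest, those beside the limit, the 3 most and 3 least variable and those above -1 in wild type; list genes named are the 3 lowest and the highest that rose; strains named are the 5 lowest, the 5 highest, the pathway strains, cyr1, cgs1, rst2 and wild type. The likeness to gene lists, the strains atg1 and vps15, ppk25 by gene, and the values beside SPBPB10D8.01 were picked once their values were known. Strains labelled by a locus are called by its gene, and that labelled prk1 is called srb10. Alternatives included normalization, probes, strains left out and pairing. Sequences and coordinates are not used here.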

Additional observations from a re-analysis of the deposited data

Results flagged for a closer look

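In 4 of 60 groups of the 4 casein kinase 1 strains, 1 strain lay far from the other 3 for its gene. Chance gives about 1 in 20, so this count is near the chance rate. The groups share the arrays of these strains and are not independent. The strain was hhp2 each time, and each value comes from 1 array per time. SPCC613.08 changed by -0.43 in hhp2, against -1.92 to -1.67 in hhp1, cki2 and cki3. SPAC5H10.10 changed by -0.53 in hhp2, against -1.27 to -1.22 in these 3. At 0 min SPAC29E6.06C stood at -0.10 in hhp2, against -0.45 to -0.41. SPCC613.01 stood at -0.14 in hhp2, against -0.07 to -0.06, a difference smaller than the spread of that gene over all strains (SD 0.16).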

How the results depend on the processing

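Quantile normalization, which gives every array 1 distribution, moved most values. By the same rule it gave 17 genes, 14 of them among the 29, a median change of -0.999 for the 29, 17 of the 29 at -1 or lower in wild type, 478 features called (175 higher and 303 lower, against 371 and 432), and shared 1 of the 5 strains with the smallest response. With it cyr1 was lowest in 7 genes and 3 genes reached an r of 0.5 with the ribosomal protein mean. Division by the SD of the array gave 7 for cyr1. The r of 0.5 with ribosomal proteins was reached by 3 genes without array numbers above 1500 and by 3 without the 2 farthest strains. The higher probe of each gene gave 22 genes, all among the 29. Leaving out the 6 labels whose deleted gene was lowest only at 0 min gave 28 genes, 27 of them among the 29. The 8 labels borne out at neither time were kept in that setting. With no replicate block, setting unpaired arrays against each other, there were 29 genes, a median of -1.301 and 804 features called, and the block changed no pathway call. Of 62 pathway alternatives 61 gave 0 of the 29 genes, and leaving out each strain gave 0 to 1, the 1 being SPBPB10D8.01 at 0 min without wis1. Apart from what a setting's own construction shows, the cause was not tested. Single-strain values have no replicate, and the pool's condition sets the 0 min level.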

Other observations

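Of 52 measured chromosomal neighbours of the 29 genes, in the order of the current gene table, 3 changed by -1 or lower and 5 by 1 or higher, with a median of 0.16. Those at -1 or lower were hom2 and, as each other's neighbour, SPAC9.06C and SPAC9.07C. The choice of the 29 genes fixed the fall of SPAC9.06C and SPAC9.07C. The count is therefore not read against the 8.76% of all features called at least 2-fold lower. The count at 1 or higher is near the background, as 7.53% of all features were called at least 2-fold higher. SPBPB10D8.02C is counted beside both SPBPB10D8.01 and SPBPB10D8.04C. SPAC9.06C and SPAC9.07C lie side by side and both belong to the 29, yet their changes were unrelated over the strains (r = -0.09). SPCC1827.05C lies beside hom2, a gene of amino acid synthesis, which changed by -2.25 (r = 0.01). The neighbours that rose include SPCC757.13 at 4.22 beside SPCC613.01, SPAC11D3.03C at 2.57 beside SPAC11D3.02C, aif1 at 1.78 beside SPAC29A4.02C, gpd1, of glycerol synthesis, at 1.51 beside SPBC215.06C, and vsb1 at 1.04 beside SPAC24H6.10C.

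Some neighbours followed a gene over the strains with a smaller change. The gene bcd1 beside SPCC613.08 changed by -0.59 with r = 0.78, and sen54, of transfer RNA splicing, on its other side by -0.71 with r = 0.67. The gene ltv1, of ribosome assembly, beside SPAC3F10.16C changed by -0.57 with r = 0.63, and vms1 beside SPCC1827.05C by -0.26 with r = 0.59. The genes sec31 (0.32, r = 0.62) and gmh4 (-0.22, r = 0.56) lie on either side of SPBC8D2.18C. These neighbours were picked for their high r among the 52, and the share of other gene pairs with such r was not computed. These r are over 62 strains that share arrays and centring, and nothing was tested.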
